A study of Homo sapiens with 16 samples.

Results

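The 2 ends of the BJ cell model were compared at atmospheric oxygen: primary BJ cells, a human fibroblast cell line with no introduced gene, and the metastasizing BJ hTERT+ SV40+ Ras-G12V cells. The members are the 4 libraries of these groups out of the 16 in the series, 2 libraries in each group, and the value compared is the net change from the first to the last stage. The metastasizing cells carry hTERT, the catalytic subunit of telomerase, SV40 Large-T, a viral oncoprotein, and Ras-G12V, a mutated signalling GTPase. The immortalized cells carry hTERT alone and the transformed cells hTERT with SV40 Large-T, and both serve below only as the path between the ends. All cells were grown for 6 passages in serum-supplemented medium, on duplicate plates in parallel. Each stage is a single cell line, so the introduced genes and the history of that line cannot be told apart, and p-values measure the spread between plates of a line rather than between separately made lines. Whether a line descends from 1 clone is not given in the sources used here.

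Large-T is known for binding the RB family of proteins, which releases the E2F transcription factors that drive genes of DNA replication, and for binding p53, which holds back transcription of p53 targets. Oncogenic RAS keeps the MAPK cascade active, and its targets include growth factor ligands and the phosphatases and Sprouty proteins that dampen the cascade. Fibroblasts are known for secreting the collagens, proteoglycans and elastic fibres of connective tissue. Interferon-stimulated genes encode antiviral proteins and are switched on by type I interferon or by sensors of foreign nucleic acid.

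Expression was given in TPM, a length-corrected share of the transcripts of a library, and transcripts were summed by gene. TPM keep no read counts, so the depth behind a value and its counting error are unknown. The table matched 88.2% to 90.1% of the TPM of a library to genes, and 11654 to 11943 protein-coding genes per library exceeded 1 TPM. The 2 plates differed more than 2-fold for 3.22% of expressed genes in primary and 1.89% in metastasizing cells at atmospheric oxygen, against 11.0% in metastasizing cells at 3% oxygen, the pair of libraries that stands apart. Those 2 libraries enter the net change only through the shared estimate of spread, which is taken over all 16 libraries. In bulk RNA, fewer cells of a type and less RNA per cell cannot be told apart.

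The introduced genes were read first. TERT, on chromosome 5 of GRCh37 from 1253262 to 1295183 on the minus strand, was listed at 0 in both primary libraries and at 68.2 and 56.9 TPM in the metastasizing libraries, almost all of it in the transcript TERT-201. Every library with hTERT was far above both primary ones, as the labels state, and no fold is given against a group listed at 0. HRAS, on chromosome 11 from 532242 to 537321 on the minus strand, stood at 74.2 and 82.6 TPM in primary and at 94.6 and 78.1 TPM in metastasizing libraries. The groups overlapped, and the log2 difference of 0.13 ± 0.55 (SE, n = 2 per group) did not pass the test (adjusted p = 0.859). The direction of that small difference turns with the scaling. The HRAS level therefore does not set the metastasizing libraries apart from the primary ones. TPM do not separate the G12V allele from the normal one, so the label Ras-G12V was not checked by these values. By the paper's account, its cell authentication, based on variants called in the RNA-seq data, bore out the stage-specific mutations of the model. Metastasizing cells at 3% oxygen had 143 and 772 TPM of HRAS. Large-T is a viral gene and was not analysed here.

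Over the whole model, 2328 of the 12500 protein-coding genes tested were called (18.6%), with 1255 higher (10.0%) and 1073 lower (8.58%) in metastasizing cells. A call required a Benjamini-Hochberg adjusted p under 0.01 in limma and a change of more than 2-fold on the log2(TPM + 0.5) scale, a scale that understates the change of low genes. The median change of the genes called higher was 1.48 and that of the genes called lower was -1.87. Changes beyond 3 on the log2 scale were found for 121 called genes that rose and 207 that fell. The groups did not overlap for any called gene, but this was also true of 9636 of all tested genes (77.1%). The median over all tested genes was 0.19, and changes are to be read against it. Rescaling the libraries to a common median ratio set that median to -0.01 and turned the split to 853 higher and 1388 lower, and quantile normalization gave 1037 higher and 1235 lower.

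**Figure D1:**
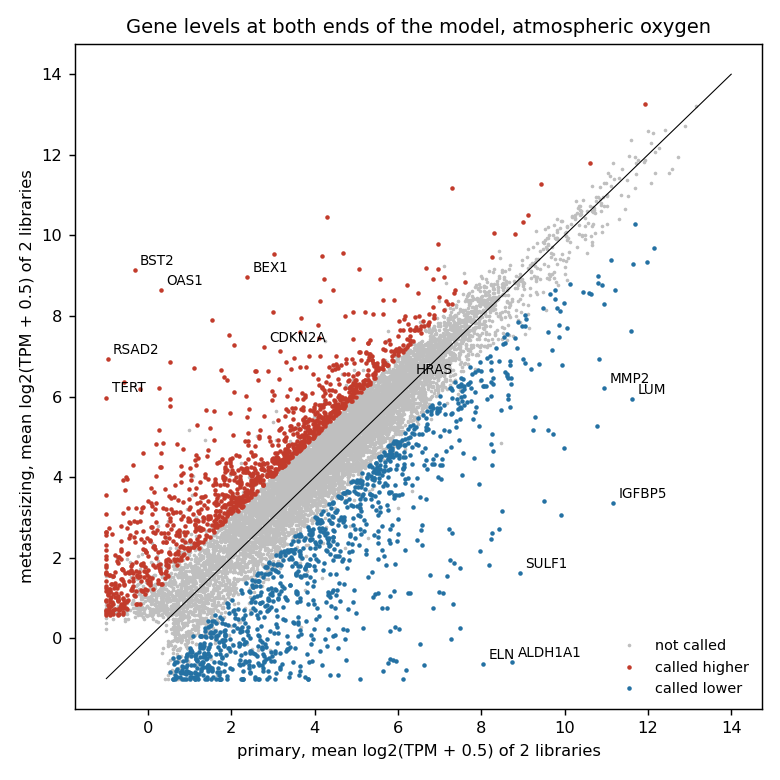
Mean log2(TPM + 0.5) of the 2 primary libraries (horizontal) against that of the 2 metastasizing libraries (vertical) for the tested genes, without those of the Y chromosome, with called genes in red (higher) or blue (lower), and the line of equal level in black. BST2 and OAS1 lie farthest above the line and ALDH1A1, ELN and IGFBP5 far below it, while HRAS lies beside the line.

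The largest rises belonged to the interferon-stimulated genes, of which 33 of the 35 tested were called higher and 0 lower, against 10.0% higher over all tested genes. Their median change was 4.24, against 0.19 over all tested genes. BST2, a membrane protein that tethers budding virus, had 0.208 and 0.403 TPM in primary and 605 and 524 TPM in metastasizing libraries. The metastasizing values stood far above the primary ones in both plates, with a log2 change of 9.46 ± 0.50 (SE, n = 2 per group, adjusted p = 1.23e-07). OAS1, a sensor of double-stranded RNA, had 1.74 and 0.185 TPM in primary and 394 and 401 TPM in metastasizing libraries, a log2 change of 8.33 ± 1.0 (adjusted p = 5.44e-05). RSAD2, which makes a chain-terminating nucleotide, rose from 0.0245 and 0 TPM to 117 and 125 TPM, a log2 change of 7.89 ± 0.91 (adjusted p = 4.11e-05). In each of these genes the primary libraries were close to the bottom of the scale, so the pseudocount holds the fold down.

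OASL, MX1, IFI44L, OAS2 and HERC5 completed the 8 interferon-stimulated genes among the 10 largest rises, with log2 changes of 6.94, 6.52, 6.37, 6.36 and 6.33. MX1, a GTPase that blocks viral replication, was already present in primary cells at 8.54 and 6.79 TPM and reached 742 and 746 TPM. The transcription factors of the pathway rose less: IRF7 by 4.06, IRF9 by 2.08 and STAT2 by 1.38 on the log2 scale. TRIM22, at 1.87, and IFITM2, at -0.44, were the 2 members that did not pass the test. Members of the OAS, IFIT and IFITM families share sequence, so the division of reads among relatives is uncertain, and ISG15 was not analysed here because its transcripts were not matched to a gene.

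The promoters of 26 of these genes were available from RefSeq (GRCh38.p14), as windows of 300 bases from 250 before to 50 after the gene start. The interferon-stimulated response element was searched as GAAANNGAAA on either strand, a motif chosen after the values were seen. It was found in 16 of 26 windows (61.5%), against 2.91% of the windows of all tested genes and 7.22% of those of genes called higher. The list was drawn up from known interferon-stimulated genes, so a high share was built into it. Its called members also count among the genes called higher. The windows below are those of the 4 members with a match and the largest rises, with the matches in capitals, and a match is a description of the letters only. BST2 lies on the minus strand at chr19:17405581-17405880, MX1 on the plus strand at chr21:41420308-41420607, IFI44L on the plus strand at chr1:78620198-78620497 and HERC5 on the plus strand at chr4:88456869-88457168.
BST2: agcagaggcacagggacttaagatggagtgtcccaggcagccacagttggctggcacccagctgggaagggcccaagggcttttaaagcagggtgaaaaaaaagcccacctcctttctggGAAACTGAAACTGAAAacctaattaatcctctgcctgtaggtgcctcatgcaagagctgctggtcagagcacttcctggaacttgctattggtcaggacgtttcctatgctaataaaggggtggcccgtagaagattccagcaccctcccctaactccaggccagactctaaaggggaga
MX1: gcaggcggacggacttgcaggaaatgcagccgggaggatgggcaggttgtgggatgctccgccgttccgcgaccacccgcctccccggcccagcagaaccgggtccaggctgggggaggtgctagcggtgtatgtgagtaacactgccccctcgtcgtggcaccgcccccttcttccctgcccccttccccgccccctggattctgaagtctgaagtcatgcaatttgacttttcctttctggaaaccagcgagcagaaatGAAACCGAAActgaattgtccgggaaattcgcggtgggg
IFI44L: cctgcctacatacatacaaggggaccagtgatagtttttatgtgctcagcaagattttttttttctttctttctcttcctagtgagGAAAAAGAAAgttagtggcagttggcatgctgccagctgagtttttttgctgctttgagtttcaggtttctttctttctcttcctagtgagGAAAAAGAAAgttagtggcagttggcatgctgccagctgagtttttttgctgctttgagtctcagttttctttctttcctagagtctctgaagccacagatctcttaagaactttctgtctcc
HERC5: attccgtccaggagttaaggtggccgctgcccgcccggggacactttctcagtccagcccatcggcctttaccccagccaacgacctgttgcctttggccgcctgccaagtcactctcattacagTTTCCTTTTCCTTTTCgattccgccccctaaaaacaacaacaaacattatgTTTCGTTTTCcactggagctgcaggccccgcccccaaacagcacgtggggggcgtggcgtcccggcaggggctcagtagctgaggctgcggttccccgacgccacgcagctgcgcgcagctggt
With the annotated start counted as 0, the 2 matches of BST2 overlap and begin at -130 and -124, and the single match of MX1 begins at 11. HERC5 holds 3 matches on the other strand, so its capitals begin and end in TTTC. IFI44L holds 2 matches within a repeated stretch.

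Genes of antigen presentation rose with smaller changes, 8 of 14 tested members higher and 0 lower, with a median of 1.37, and 5 were called without primary replicate a. Over all tested genes 10.0% were called higher. B2M, the invariant chain of class I molecules, rose by 1.33 on the log2 scale, and ERAP1, a peptidase that trims peptides for loading, by 2.03. PSMB9, an interferon-inducible subunit of the proteasome, had 2.04 and 1.44 TPM in primary and 19.7 and 18.6 TPM in metastasizing libraries, a log2 change of 3.14 ± 0.32 (adjusted p = 1.79e-05). Genes of the major histocompatibility region (HLA-B, PSMB8, PSMB9 and TAP1 among them) were listed at levels of a few TPM, and some of their transcripts may lie on alternate haplotypes that were not matched, so their levels are uncertain. CIITA and NLRC5, the transactivators of this group, were at 0.84 and 0.77 and did not pass the test.

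Of the 20 tested cytokines and chemokines 10 were called higher and 1 lower, against 10.0% and 8.58% over all tested genes. The median was 2.29. With a filter of 5 TPM in place of 1 TPM, 4 were called higher. CXCL8, a chemokine that attracts neutrophils, had 2.25 and 1.19 TPM in primary and 100 and 108 TPM in metastasizing libraries, a log2 change of 5.6 ± 0.75 (adjusted p = 0.000114). The route between was not gradual, since the immortalized libraries had 3650 and 2320 TPM and the transformed ones 31.6 and 31.1 TPM. IL6, an inflammatory cytokine, went from 8.08 and 9.10 TPM to 139 and 138 TPM, again with a peak in the immortalized libraries (2150 and 1340 TPM), and its net change was 3.94 ± 0.71 (adjusted p = 0.000928). CXCL11, an interferon-induced chemokine, was listed at 0 in both primary libraries and at 4.03 and 5.00 TPM in metastasizing ones. The one member called lower was PTGS2, the inducible cyclooxygenase, with 25.0 and 30.6 TPM in primary and 3.82 and 4.06 TPM in metastasizing libraries (log2 change -2.67 ± 0.49, adjusted p = 0.00107). Without primary replicate b PTGS2 no longer passed (adjusted p = 0.0101).

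**Figure D2:**
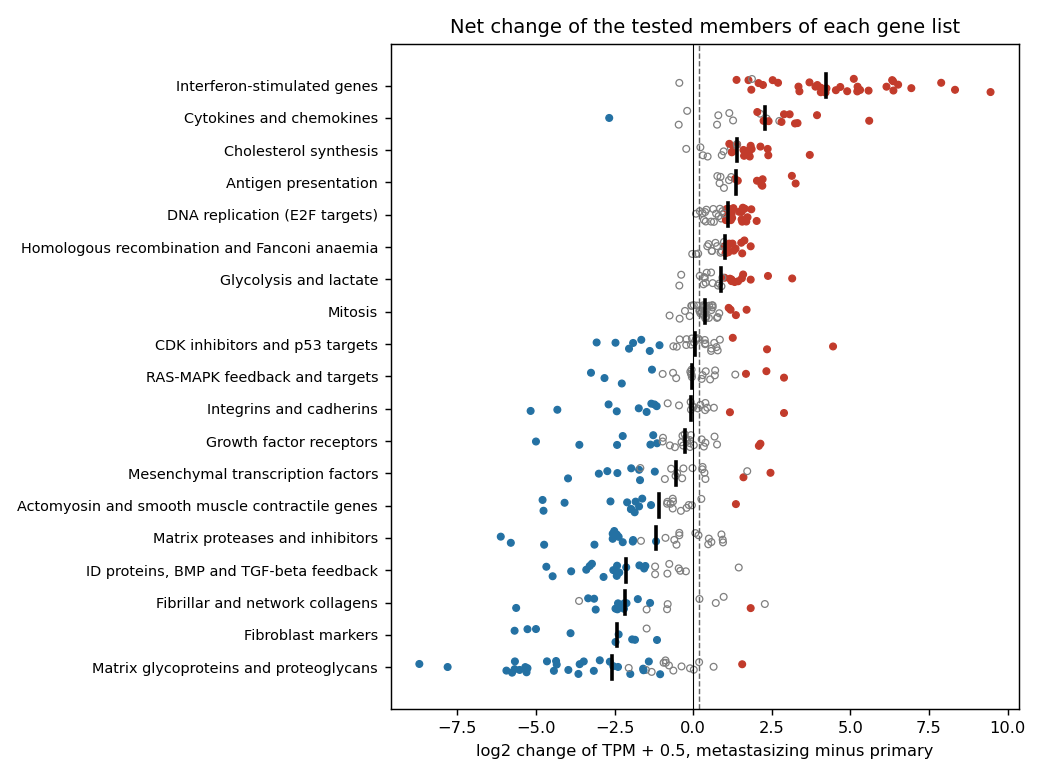
Log2 change of TPM + 0.5, metastasizing minus primary, of every tested member of the gene lists, with called members filled (red higher, blue lower), other members open, the median of each list as a black bar, and the median of all tested genes (0.19) as a dashed line. The interferon-stimulated genes lie at the right end with a median of 4.24, and the matrix glycoproteins at the left end with a median of -2.59.

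Genes of DNA replication, most of them known E2F targets, were called higher in 23 of 39 members, against 10.0% over all tested genes. Lower calls numbered 0, and the median was 1.10. ORC1, the subunit that starts the origin recognition complex, had 8.34 and 9.03 TPM in primary and 36.1 and 37.4 TPM in metastasizing libraries, a log2 change of 2.02 ± 0.12 (adjusted p = 3.38e-07). MCM2, of the replicative helicase, rose from 36.4 and 43.5 TPM to 143 and 124 TPM (1.73 ± 0.18, adjusted p = 2.04e-05). MCM4, another helicase subunit, rose by 1.85 ± 0.27 (adjusted p = 0.000199), with a wider spread between plates at both ends. All 39 members had a positive change, and the ones that did not pass included E2F1 at 0.73, PCNA at 0.93 and CCNE1 at 0.09. With the median-ratio scaling 13 members were called and the median was 0.89, so the number of calls depends on the scaling.

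The E2F site was searched as TTTCCCGC, TTTCGCGC, TTTGCCGC or TTTGGCGC on either strand. It stood in 19 of 32 available windows of this list (59.4%), against 5.54% of all tested genes and 6.73% of genes called higher. The list was drawn up mostly from known E2F targets, so a high share was built into it. The count takes called and other members alike, and a match describes the letters only. The 3 called members with a match and the largest rises are shown, with the matches in capitals: MCM2 on the plus strand at chr3:127598161-127598460, POLE2, a subunit of DNA polymerase epsilon, on the minus strand at chr14:49688165-49688464, and CDC6, a helicase loader, on the plus strand at chr17:40287629-40287928.
MCM2: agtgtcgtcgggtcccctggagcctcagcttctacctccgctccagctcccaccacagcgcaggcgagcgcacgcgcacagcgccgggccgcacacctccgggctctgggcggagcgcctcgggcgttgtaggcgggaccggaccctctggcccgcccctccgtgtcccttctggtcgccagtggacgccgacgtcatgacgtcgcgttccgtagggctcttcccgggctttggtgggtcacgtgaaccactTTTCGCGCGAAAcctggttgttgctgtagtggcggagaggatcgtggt
POLE2: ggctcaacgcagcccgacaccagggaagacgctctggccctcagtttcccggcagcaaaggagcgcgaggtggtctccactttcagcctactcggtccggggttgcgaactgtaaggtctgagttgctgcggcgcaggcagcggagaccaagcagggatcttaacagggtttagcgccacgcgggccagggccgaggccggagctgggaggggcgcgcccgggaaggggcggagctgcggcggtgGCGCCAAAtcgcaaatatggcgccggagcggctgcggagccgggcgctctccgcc
CDC6: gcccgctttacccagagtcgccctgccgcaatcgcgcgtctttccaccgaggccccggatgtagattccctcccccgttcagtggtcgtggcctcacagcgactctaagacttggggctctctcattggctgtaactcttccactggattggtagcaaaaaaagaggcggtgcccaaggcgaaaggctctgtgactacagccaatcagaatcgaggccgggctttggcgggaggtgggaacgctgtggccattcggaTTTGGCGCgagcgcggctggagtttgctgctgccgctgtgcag
The matches begin at 2 and 6 in MCM2, at -5 in POLE2 and at 7 in CDC6, counted in the same way, so each lies at the annotated start. POLE2 and CDC6 rose by 1.69 and 1.64 on the log2 scale.

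Repair by homologous recombination and the Fanconi anaemia pathway showed 14 of 26 members called higher, against 10.0% over all tested genes, and 0 lower. The median was 1.02. XRCC3, of the strand-exchange step of recombination, had 16.2 and 21.5 TPM in primary and 62.6 and 73.7 TPM in metastasizing libraries (log2 change 1.83 ± 0.14, adjusted p = 2.27e-06). FANCI, of the complex that is ubiquitinated at stalled forks, rose by 1.63 ± 0.15 and EXO1, an end-resecting nuclease, by 1.56 ± 0.13. FANCA, at 0.16, did not pass the test. Members called numbered 7 under the median-ratio scaling, 9 under quantile normalization and 9 without metastasizing replicate b.

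Of 35 mitotic genes 4 were called higher and 0 lower (11.4% called, against 18.6% of all tested genes), with a median of 0.39, and 2 were called under the median-ratio scaling or without primary replicate a. CDC25C, the phosphatase that activates CDK1, rose by 1.70 ± 0.30 (adjusted p = 0.00083) and AURKB, a kinase of chromosome segregation, by 1.36 ± 0.15 (adjusted p = 2.57e-05). KIF2C, a microtubule depolymerase, was at 1.19 ± 0.21, and it no longer passed with the median-ratio scaling or without primary replicate a. MKI67, the proliferation marker, was at 0.02, CDC20 at -0.11 and CENPF at -0.75, none of them past the threshold. The CHR element, searched as TTTGAA on either strand, was found in 20 of 29 mitotic windows (69.0%), against 9.75% of all tested genes. This count also takes called and other members alike and describes the letters only. The list was drawn up from known mitotic genes, so a high share may be built into it as well.

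Among CDK inhibitors and p53 targets, 3 of 30 members were called higher and 7 lower, against 10.0% higher and 8.58% lower over all tested genes, so the number called higher was that of the background. The list had a median of 0.06, which turns negative under both rescalings. CDKN2A, which encodes p16 and ARF, inhibitors of CDK4 and of MDM2, had 8.30 and 4.89 TPM in primary and 151 and 148 TPM in metastasizing libraries, a log2 change of 4.45 ± 0.37 (adjusted p = 4.01e-06). Its level was split mainly between the transcripts CDKN2A-212 (72.4 and 73.6 TPM) and CDKN2A-201 (70.0 and 65.2 TPM), both at 5.38 TPM or less in each primary library. In the immortalized libraries CDKN2A was at 0.132 and 0 TPM and its neighbour CDKN2B, another CDK4 inhibitor, at 0.0149 and 0 TPM, while the transformed libraries had 85.7 and 82.5 TPM of CDKN2A and 7.55 and 5.98 TPM of CDKN2B. CDKN2B rose from 3.90 and 4.17 TPM to 23.9 and 21.5 TPM over the whole model (2.35 ± 0.31, adjusted p = 0.000104). The p53 targets that fell were SPATA18 by 3.07, ZMAT3 by 2.47, EDA2R by 1.91, FAS by 1.65, PHLDA3 by 1.38 and PLK3 by 1.07 on the log2 scale. CDKN1C, a CDK inhibitor not counted as a classical p53 target, went from 1.97 and 2.03 TPM to 0.139 and 0.0760 TPM. The best known targets did not pass: CDKN1A, encoding p21, was at -0.43, MDM2 at 0.67, GDF15 at 0.09 and BAX at 0.03.

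Feedback genes and targets of the RAS-MAPK cascade gave 3 calls higher and 4 lower among 22 tested members, against 10.0% and 8.58% over all tested genes, with a median of -0.04. The number called higher is near the background, and it was 1 without any one of the 4 libraries. The ligand HBEGF, an EGF receptor agonist, had 5.85 and 5.75 TPM in primary and 31.1 TPM in each metastasizing library (log2 change 2.33 ± 0.17, adjusted p = 1.80e-06). Another ligand of that receptor, EREG, went the other way, from 18.8 and 22.9 TPM to 1.85 and 1.62 TPM (-3.25 ± 0.48, adjusted p = 0.00024). DUSP6, the phosphatase that dephosphorylates ERK, fell by 2.27 ± 0.40 (adjusted p = 0.000734) and CCND1, encoding cyclin D1, fell from 326 and 386 TPM to 50.5 and 49.3 TPM (-2.82 ± 0.15, adjusted p = 1.13e-07). LIF at 2.89 and DUSP4 at 1.68 were called, but leaving out any one of the 4 libraries ended both calls (adjusted p up to 0.0364 and 0.0202). Of the dampers of the cascade, SPRY4 fell by 1.31, SPRY2 was at -0.54 and SPRY1 at -0.05.

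Receptors for growth factors showed 2 calls higher and 7 lower among 30 tested members, against 10.0% and 8.58% over all tested genes. The number called higher was near the background. PDGFRA, a receptor for platelet-derived growth factor, had 54.2 and 51.7 TPM in primary and 1.07 and 1.26 TPM in metastasizing libraries, a log2 change of -5.00 ± 0.22 (adjusted p = 2.80e-08). NOTCH3 fell by 3.62 ± 0.32, FZD7 by 2.24 and TGFBR2 by 1.27 on the log2 scale. KIT, the receptor for stem cell factor, rose from 3.00 and 3.12 TPM to 13.6 and 15.8 TPM (2.09 ± 0.36, adjusted p = 0.000656). ROR2, a WNT5A receptor, rose by 2.14 ± 0.27, with a gap between its metastasizing plates (13.3 and 7.35 TPM). EGFR at -0.58, MET at -0.24 and FGFR1 at -0.27 did not pass.

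Cholesterol synthesis was called higher in 16 of 24 tested members, against 10.0% over all tested genes, and lower in 0. The median was 1.39. INSIG1, the sterol-responsive anchor that holds SREBP in the endoplasmic reticulum, had 15.5 and 17.1 TPM in primary and 212 and 227 TPM in metastasizing libraries (3.71 ± 0.17, adjusted p = 4.15e-08). DHCR7, of the last step of synthesis, rose from 18.2 and 21.7 TPM to 113 and 101 TPM (2.39 ± 0.20, adjusted p = 3.95e-06). HSD17B7, which reduces sterol intermediates, rose from 3.36 and 3.55 TPM to 20.7 and 19.2 TPM (2.37 ± 0.45, adjusted p = 0.0012). INSIG1 and DHCR7 were each high in the immortalized libraries, low again in the transformed ones and high at the end. MVD at 0.23 and PMVK at -0.22 were among the 8 members that did not pass.

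Of 25 genes of glycolysis and lactate handling, 11 were called higher, against 10.0% over all tested genes, and 0 lower. The median was 0.90. ENO2, an enolase, had 11.3 and 11.5 TPM in primary and 63.5 and 59.0 TPM in metastasizing libraries (2.38 ± 0.09, adjusted p = 1.21e-08). ALDOC, an aldolase, rose from 8.17 and 6.72 TPM to 72.1 and 67.1 TPM (3.15 ± 0.34, adjusted p = 2.49e-05). Its path was not gradual, with 29.0 and 35.4 TPM in immortalized and 10.7 and 12.8 TPM in transformed libraries. The steps were 2.04, -1.42 and 2.52. PGK1 rose by 1.55, HK2 by 1.22 and PFKFB4, which makes the activator of phosphofructokinase, by 1.83 on the log2 scale. LDHA, at 0.40, GAPDH, at 0.57, and SLC2A1, the glucose transporter, at 0.43, did not pass.

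**Figure D3:**
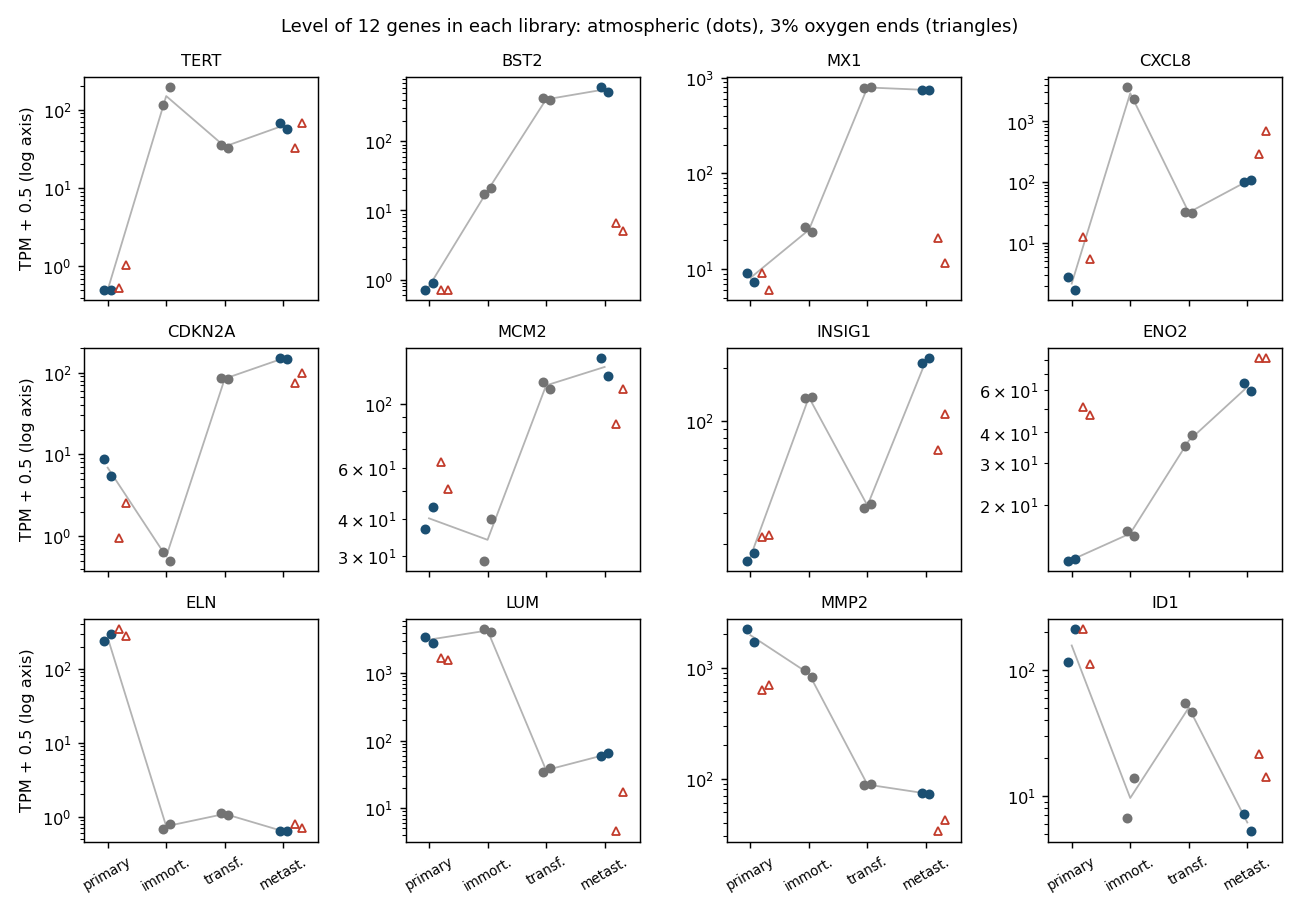
TPM + 0.5 on a log axis for 12 genes in each of the 8 atmospheric libraries (dots, ends in blue, middle stages in grey, line through the group means on the log scale) and in the primary and metastasizing libraries at 3% oxygen (red triangles). BST2 and MX1 climb to the transformed stage and stay high, CXCL8 peaks in the immortalized libraries, and ELN is already near the floor there.

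Matrix glycoproteins and proteoglycans had the lowest median of the lists. Of 42 tested matrix glycoproteins and proteoglycans 28 were called lower and 1 higher, against 8.58% lower over all tested genes, and the median was -2.59. ELN, which encodes elastin (chromosome 7 of GRCh37, 73442119 to 73484237), had 238 and 295 TPM in primary and 0.132 and 0.139 TPM in metastasizing libraries, a log2 change of -8.71 ± 0.23 (adjusted p = 1.15e-09). IGFBP5, a matrix-bound regulator of insulin-like growth factors, went from 2310 and 2290 TPM to 9.84 and 9.58 TPM (-7.81 ± 0.27, adjusted p = 7.31e-09). Both genes were near the bottom of the scale or far below their primary level in each metastasizing plate. Other parts of the elastic fibre fell with elastin, MFAP5 by 5.94, FBLN5 by 5.76, MFAP4 by 5.30 and FBN1 by 2.97 on the log2 scale. Its crosslinking enzymes did not pass the test (LOX at 0.02, LOXL1 at 0.19, LOXL2 at -0.37).

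The small leucine-rich proteoglycans LUM and DCN, which space collagen fibrils, fell from 3490 and 2840 TPM to 57.9 and 64.1 TPM and from 1070 and 957 TPM to 22.4 and 29.8 TPM. Their log2 changes were -5.68 ± 0.44 (adjusted p = 2.44e-06) and -5.27 ± 0.34 (adjusted p = 5.39e-07). PODN, another member of that family outside the list, fell by 7.31 ± 0.19 (adjusted p = 1.15e-09). FBN2, a fibrillin of the developing matrix, was the one glycoprotein called higher, at 12.4 and 14.6 TPM in primary and 36.6 and 44.9 TPM in metastasizing libraries (1.56 ± 0.26, adjusted p = 0.000476), and it was almost absent from the immortalized libraries (0.0156 and 0.00697 TPM). The summed level of the whole list was 29100 and 26800 TPM in primary and 7600 and 7570 TPM in metastasizing libraries.

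Collagens were called lower in 13 of 22 tested members and higher in 1, against 8.58% and 10.0% over all tested genes. The median was -2.15. The chains of the main fibril, COL1A1 and COL1A2, fell by 2.37 and 2.47 on the log2 scale, while COL3A1, at -1.48, did not pass. COL15A1, a basement membrane collagen, fell from 165 and 125 TPM to 3.82 and 1.46 TPM (-5.63 ± 0.38, adjusted p = 6.97e-07). Of the 22 members 5 had a positive change, and COL4A5 was the only one called higher. It went from 7.15 and 7.59 TPM to 29.6 and 25.4 TPM (1.83 ± 0.16, adjusted p = 6.38e-06). The related chains COL4A1 and COL4A2 fell by 2.20 and 2.12. The summed level of the list was 12600 and 12900 TPM in primary and 3220 and 3130 TPM in metastasizing libraries.

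Matrix proteases and their inhibitors were called lower in 13 of 27 tested members and higher in 0, against 8.58% and 10.0% over all tested genes. CTSK, a collagen-degrading cathepsin, had 836 and 637 TPM in primary and 11.9 and 8.49 TPM in metastasizing libraries (-6.12 ± 0.38, adjusted p = 4.13e-07). MMP2, a gelatinase, fell from 2250 and 1720 TPM to 73.7 and 72 TPM (-4.74 ± 0.14, adjusted p = 3.02e-09) and MMP3, a stromelysin, by 5.80 ± 0.33. The inhibitors fell as well, TIMP1 by 2.56, TIMP3 by 2.51 and TIMP2 by 2.37 on the log2 scale. MMP14, the membrane-bound activator of MMP2, at -0.60, and PLAU, the urokinase, at 0.50, did not pass. MMP9, MMP12 and MMP13 were under 1 TPM at both ends and were not tested.

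Of 24 genes of the actomyosin and smooth muscle apparatus, 12 were called lower and 1 higher, against 8.58% and 10.0% over all tested genes. The median was -1.09. ACTA2, the smooth muscle actin of contractile fibroblasts, had 744 and 496 TPM in primary and 37.9 and 32.6 TPM in metastasizing libraries (-4.09 ± 0.38, adjusted p = 8.81e-06). LMOD1 and SYNPO2, actin regulators of smooth muscle, fell by 4.76 ± 0.37 and 4.79 ± 0.21. ACTG2, the other smooth muscle actin, rose from 13.1 and 11.8 TPM to 33.7 and 31.7 TPM (1.36 ± 0.18, adjusted p = 0.000122). Actin genes are close relatives, so reads may be shared between them. The non-muscle genes MYH9 at -0.72, ACTN1 at -0.65 and VCL at -0.83 did not pass.

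Targets and modulators of TGF-beta and BMP signalling were called lower in 15 of 23 tested members, against 8.58% over all tested genes. Higher calls numbered 0, and the median was -2.13. All 4 ID genes, inhibitors of helix-loop-helix factors and immediate BMP targets, fell: ID1 by 4.67, ID3 by 3.40, ID4 by 3.22 and ID2 by 2.54 on the log2 scale. ID1 had 115 and 213 TPM in primary and 6.73 and 4.71 TPM in metastasizing libraries (SE 0.41, adjusted p = 5.37e-06), with a wide gap between the primary plates. The inhibitory SMAD6 and SMAD7 fell by 3.29 and 2.85, the ligands TGFB1 and INHBA by 1.52 and 2.35, and the latency protein LTBP2 by 3.88. TGFB2, at 1.45, was the only member with a positive value and did not pass.

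Adhesion receptors and mesenchymal transcription factors were mixed. Over all tested genes 8.58% were called lower and 10.0% higher, so the number called higher in both lists was near the background. Of 23 tested integrins and cadherins 9 were called lower and 2 higher, with a median of -0.08. ITGA11, a collagen receptor of fibroblasts, fell from 93.2 and 65.9 TPM to 1.77 and 1.60 TPM (-5.17 ± 0.32, adjusted p = 4.23e-07), and CDH11, the mesenchymal cadherin, by 2.69 ± 0.09. ITGA7, a laminin receptor, rose from 1.03 and 2.27 TPM to 15.5 and 14.1 TPM (2.89 ± 0.28, adjusted p = 1.24e-05). ITGB8, at 1.17, was also called higher, a call that ended without either metastasizing library or without primary replicate a (adjusted p up to 0.0199), with a pseudocount of 1 TPM (0.86) and in a fit of only the libraries compared (adjusted p = 0.0139). Of 23 tested mesenchymal transcription factors 8 were called lower and 2 higher, and 5 lower and 1 higher without replicate b of either group. PRRX2 fell by 3.98 ± 0.39 and SNAI1, a repressor of cadherin 1, from 7.46 and 9 TPM to 0.611 and 0.565 TPM (-3 ± 0.36, adjusted p = 5.65e-05). PRRX1 fell by 2.73 and TBX15 rose by 1.60, and the call of PRRX1 ended without primary replicate a or metastasizing replicate b and that of TBX15 without replicate b of either group (adjusted p up to 0.0136 and 0.0130). EBF1 rose by 2.46 ± 0.38 (adjusted p = 0.000324). TWIST1, at 0.39, and ZEB2, at 0.36, did not pass, and CDH1 was under 1 TPM at both ends.

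The fibroblast label was checked against 10 defining markers. All 10 were present in primary cells, and 9 were called lower in metastasizing cells, against 8.58% over all tested genes. Their median was -2.42, and COL3A1 did not pass. Their summed level was 16600 and 15700 TPM in primary and 2410 and 2280 TPM in metastasizing libraries, with the fall between the immortalized (16200 and 15500 TPM) and the transformed stage (2280 and 2130 TPM). Markers of other cell types stayed near 0 in these 4 libraries. Summed epithelial markers were 0.746 to 2.96 TPM and endothelial ones 0.617 to 1.99 TPM. Blood markers were 1.47 to 1.87 TPM and melanocyte markers 1.59 to 3.77 TPM. The endothelial sum lacks PECAM1, which had no summed value here. Of those lists only TEK, an endothelial receptor at 1.48 and 1.89 TPM in primary cells, was called, and it was lower (0 and 0.0206 TPM in metastasizing libraries).

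Outside the lists, BEX1 (chromosome X), a small adaptor of neurotrophin signalling, was with TERT among the 10 largest rises, from 5.07 and 4.28 TPM to 504 and 493 TPM (6.6 ± 0.22, adjusted p = 4.30e-09), although the immortalized libraries had only 0.0893 and 0 TPM. ALDH1A1 (chromosome 9), which makes retinoic acid, had the largest fall, from 468 and 392 TPM to 0.0727 and 0.264 TPM (-9.34 ± 0.25, adjusted p = 1.36e-09), and was listed at 0 in both immortalized libraries. STMN2, a microtubule regulator best known from neurons, had 71.7 and 67.4 TPM in primary cells and was listed at 0 in all 6 libraries of the later stages. SULF1, which trims heparan sulphate, fell by 7.30 ± 0.22, and TNFRSF11B, the decoy receptor osteoprotegerin, from 965 and 967 TPM to 6.29 and 9.65 TPM (-6.86 ± 0.28). The other falls among the 10 largest were the transporter SLC38A11 at -7.30, IGFBP2 at -7.22 and the secreted inhibitor WFDC1 at -6.99. Both metastasizing plates lay far below both primary plates for each of the genes named here as falling.

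The path between the ends was described for the 2328 called genes. The steps share libraries with the net change and add up to it, so their values are shown side by side without a test. The step from immortalized to transformed cells held the largest part of the net change for 621 of the 1255 genes called higher (49.5%) and for 540 of the 1073 called lower (50.3%). The first step, to immortalized cells, held the largest part for 337 (26.9%) and 416 (38.8%), and the last step for 297 (23.7%) and 117 (10.9%). Both middle stages lay between the ends for 642 of the genes called higher (51.2%) and 431 of those called lower (40.2%). The rest passed outside the ends at some stage, 80 and 137 of them by more than 2-fold.

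**Figure D4:**
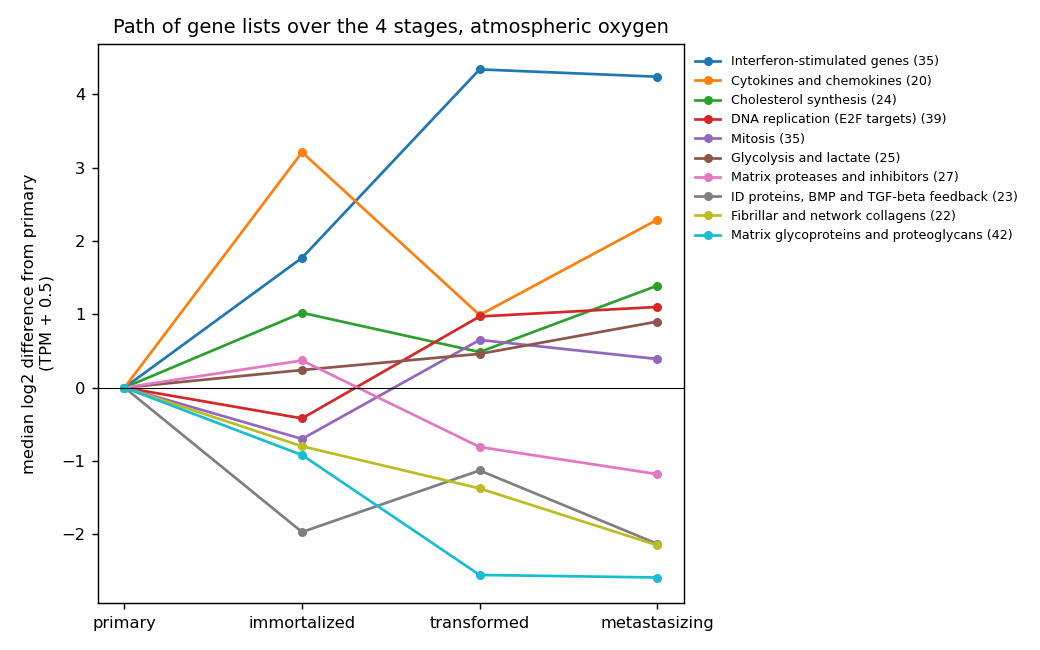
Median log2 difference from primary cells over the tested members (number in brackets) of 10 gene lists at each stage at atmospheric oxygen. Interferon-stimulated genes reach 1.77, 4.34 and 4.24, cytokines peak at 3.21 in immortalized cells, and DNA replication genes dip to -0.42 before rising to 1.10.

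The lists differed in their step medians, given without a test. The median of the interferon-stimulated genes rose by 1.77 in the first step and by 2.43 in the next and moved by 0.27 in the last. ID proteins and their pathway had a median of -1.97 in the first step, with 0.40 and -0.55 after it. Replication genes had step medians of -0.42, 1.41 and 0.17, and matrix glycoproteins -0.92, -1.08 and -0.30. Cholesterol genes moved up, down and up again with 1.02, -0.53 and 1.08. The genes whose largest step was the last included INHBE, an activin subunit, with 0.208 and 0.694 TPM in transformed and 9.11 and 8.33 TPM in metastasizing libraries. INHBE had already stood at 7.09 and 7.18 TPM in immortalized libraries, against 1.03 and 0.686 TPM in primary ones. SSTR1, a somatostatin receptor, had 20.3 and 19.2 TPM in transformed and 1.74 and 1.83 TPM in metastasizing libraries, after steps of -0.21 and -0.39. HMSD and FNDC10 were the other 2 named for that step, with net changes of 1.70 and -3.24. Their steps were 0.87, -2.15 and 2.99 for HMSD and -2.65, 2.87 and -3.46 for FNDC10, so both turned back on the way.

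The same net change was then set against the one at 3% oxygen, which comes from 4 other libraries. The difference between the 2 net changes was called for 840 of 12828 genes tested (6.55%), 553 with the larger value at atmospheric oxygen (4.31%) and 287 with the smaller one (2.24%). Of the 2328 genes called at atmospheric oxygen, 438 differed, and in 402 of those the net change was smaller in size at 3% oxygen. These genes were chosen for a large change at atmospheric oxygen, and the same values enter the difference. The choice itself favours a difference and a smaller value at 3% oxygen, so neither count is read as an effect of oxygen. The count moved with the libraries used: it was 1510 without replicate b and 1027 without replicate a of the metastasizing libraries at 3% oxygen, 378 to 524 without any one library of the other 3 groups, 448 with array weights and 129 in a fit of only the 8 libraries compared.

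**Figure D5:**
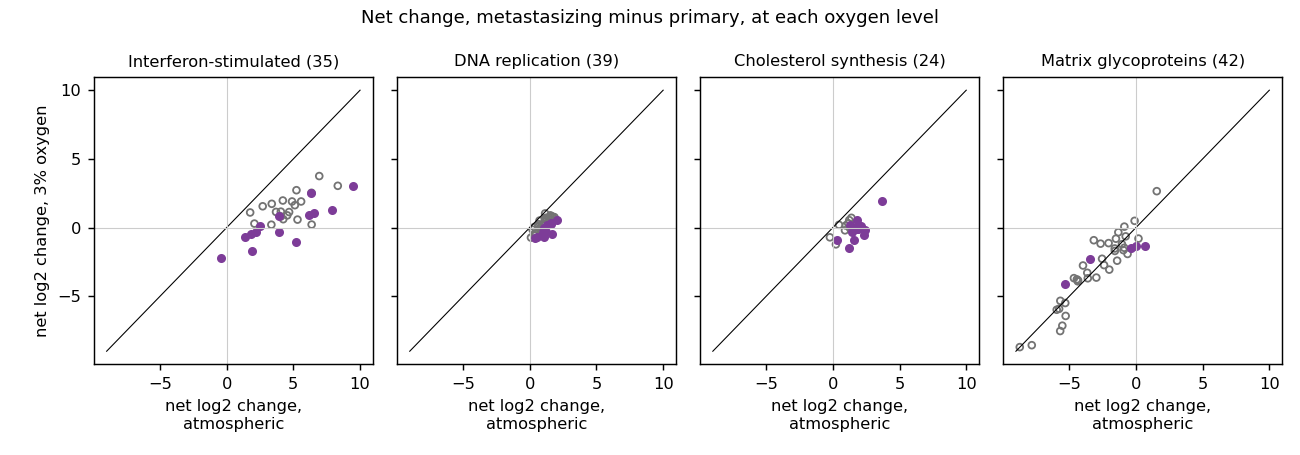
Net log2 change at atmospheric oxygen (horizontal) against that at 3% oxygen (vertical) for the tested members of 4 gene lists, with filled points for genes whose difference was called and the line of equal change in black. Interferon-stimulated and cholesterol genes lie below the line, while matrix glycoproteins lie near it.

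The counts by list given from here on come from the fit of all 16 libraries and were not repeated in the alternatives. The lists were chosen with earlier results of these data known, and their atmospheric values enter the difference. These counts are therefore not read as an effect of oxygen either. Interferon-stimulated genes differed in 14 of 35 members, against 6.55% over all genes tested, each with the larger net change at atmospheric oxygen. Their median at 3% oxygen was 1.07 against 4.24. Their summed level in metastasizing cells was 13800 and 13000 TPM at atmospheric and 678 and 766 TPM at 3% oxygen, while primary cells had 1670 and 1500 TPM and 794 and 688 TPM. BST2 reached 6.13 and 4.63 TPM in metastasizing cells at 3% oxygen and differed by 6.42 ± 0.71 (adjusted p = 0.000332). USP18, which switches off interferon signalling, rose from 3.79 and 3.55 TPM to 157 and 153 TPM at atmospheric oxygen but had 8.80 and 6.92 TPM in primary and 3.79 and 3.12 TPM in metastasizing cells at 3% oxygen (difference 6.30 ± 1.15, adjusted p = 0.00398). Both metastasizing plates at 3% oxygen lay far below both at atmospheric oxygen for these genes, and the net value of USP18 there was -1.08.

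Cholesterol genes differed in 14 of 24 members and glycolysis genes in 10 of 25, against 6.55% over all genes tested. Each of these had the larger net change at atmospheric oxygen. The medians of the lists at 3% oxygen were -0.06 and 0.02. DNA replication genes differed in 12 of 39 members, with a median of 0.20 at 3% oxygen. For these groups the primary cells also differed: the replication list summed to 2150 and 2260 TPM in primary cells at atmospheric oxygen and to 3560 and 3650 TPM at 3%, against 4390 and 4310 TPM and 3840 and 3970 TPM in metastasizing cells. ENO2, for example, had 50.3 and 46.6 TPM in primary cells at 3% oxygen, against 11.3 and 11.5 TPM at atmospheric oxygen, and 80.8 and 80.7 TPM in metastasizing cells. Matrix glycoproteins differed in 5 of 42 members, against the same 6.55%, with 3 higher and 2 lower at atmospheric oxygen. Their median of -2.34 at 3% oxygen stood beside -2.59. ELN had net values of -8.71 and -8.70.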

How the data were processed

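RNA-seq was analysed for 16 libraries in 8 groups of 2, from 4 stages at atmospheric or 3% oxygen. The authors made stranded mRNA libraries, quantified transcripts with kallisto 0.42.1 against GRCh37 and deposited TPM per transcript, without pooling replicates. The deposited TPM hold no counts, so depth is unknown and the authors' count-based test was not repeated. Of 180253 transcripts, 151453 were matched to GENCODE 44 (lifted to GRCh37) and 28800 were not. TPM were summed over 19356 protein-coding genes, and 1 stray header line was skipped.

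Values were analysed as log2(TPM + 0.5) with limma 3.58.1 in R 4.3.3 (8 group coefficients, intensity trend, 8 residual degrees of freedom) for genes whose mean reached 1 TPM at either end (in any of 4 groups for the oxygen difference). Calls needed a Benjamini-Hochberg adjusted p under 0.01 over all tested genes and a log2 change beyond 1. An exact permutation test of 2 against 2 cannot go below a two-sided p of 0.333. On simulated data for the net change over 12087 genes, 177 of 200 changed genes were recovered and 1 unchanged gene was called.

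The members and gene lists were chosen with earlier results of these data known. Genes named are TERT and HRAS, the 10 largest rises and falls among called genes, and the 3 largest of each direction per list. The 3 largest of each direction in the oxygen difference were added. So were, for each step, the 2 called genes of each direction that changed most in it. These were taken among genes with the largest part of their net change in that step. Other list members are given to describe a list. Genes of the Y chromosome were not named. Some list members enter the counts and medians but are not reported here by name. Groups follow the labels. Replicates carry letters a and b, and nothing beyond the letter links plates. Promoters came from RefSeq (GRCh38.p14). Alternatives covered pseudocount, filter, scaling, model, threshold, gene set and each library left out. Tables were made in Python 3.11.15 with pandas 2.3.3 and numpy 2.4.6, figures with matplotlib 3.10.9.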

Additional observations from a re-analysis of the deposited data

Results flagged for a closer look

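For 29 of the 97 named genes the net change at atmospheric oxygen differed from that at 3% oxygen in limma's test of the difference. The test required an adjusted p under 0.01 and a difference beyond 1 on the log2 scale. Over all genes tested 6.55% passed. The named genes include the largest oxygen differences, and most others were chosen for a large change at atmospheric oxygen. Their count is therefore not to be compared with that share. Differences below are the atmospheric value minus the 3% value, on the log2(TPM + 0.5) scale. The metastasizing libraries at 3% oxygen are the pair with the widest spread between plates, and their part in these differences was not tested beyond leaving each out.

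Among interferon-stimulated genes the difference was 6.62 for RSAD2, 6.42 for BST2, 6.30 for USP18, 5.45 for MX1 and 3.79 for HERC5. BST2 passed in all 20 alternatives, RSAD2 in 12, USP18 in 14, and MX1 and HERC5 in 6 each. All 5 had a smaller net value at 3% oxygen (7.89 against 1.28 for RSAD2, 6.52 against 1.07 for MX1).

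Among metabolic genes the difference was 2.90 for HSD17B7, 2.60 for PFKFB4, 2.56 for DHCR7, 2.54 for ALDOC, 1.75 for INSIG1 and 1.64 for ENO2. HSD17B7 passed in only 8 of 20 alternatives (adjusted p up to 0.0526) and ALDOC in 13, PFKFB4 and INSIG1 in 19 each, and DHCR7 and ENO2 in all 20. DHCR7 had a net value of 2.39 at atmospheric and of -0.17 at 3% oxygen. Among genes of replication, repair and mitosis it was 1.5 for FANCI, 1.44 for ORC1, 1.20 for EXO1 and 1.16 for AURKB, all 4 with net values at 3% oxygen between 0.13 and 0.58. FANCI and ORC1 passed in 19 alternatives each, EXO1 in 16 and AURKB in 12. COL4A5 differed by 1.84, with a net value of -0.01 at 3% oxygen, and TEK by 2.09, since it fell further at 3% oxygen (-4.18 against -2.09). They passed in 20 and 18 alternatives.

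A negative difference was found for G0S2, a lipase inhibitor (-6.41), and the cytokine gene IL1B (-6.10), neither of which was called at atmospheric oxygen (1.29 and 1.27). At 3% oxygen G0S2 had 0.392 and 0 TPM in primary and 69.6 and 276 TPM in metastasizing libraries, and IL1B 2.19 and 1.22 TPM against 186 and 677 TPM. They passed in 17 and 15 of 20 alternatives. ACTG2 also rose less at atmospheric oxygen (-2.94, with net values of 1.36 and 4.29) and passed in all 20 alternatives. The named matrix and contractile genes with a further fall at atmospheric oxygen had differences of -4.62 for CEMIP, a hyaluronan-degrading protein, -3.18 for CTSK, -2.89 for LMOD1, -2.76 for COL15A1, -2.02 for COL8A2 and -1.71 for COL13A1. They passed in 12 (CEMIP), 16 (CTSK), 14 (LMOD1), 11 (COL15A1), 19 (COL8A2) and 12 (COL13A1) of 20 alternatives. The lists did not share one direction. Over all genes tested 4.31% had the higher and 2.24% the lower net value at atmospheric oxygen. Of the 22 collagens tested these were 6 and 3 (median difference 1.26), and of the 24 contractile genes 0 and 4 (-0.66). The 3 and 2 of 42 matrix glycoproteins (0.02) and the 0 and 2 of 28 matrix proteases and inhibitors (-0.34) are too few to give a direction. In CEMIP the metastasizing plates at 3% oxygen were far apart (9.28 and 71.8 TPM). ALDH1A1 (-3.02) and CDKN1C (-2.56) differed in the same direction, in 18 of 20 and 17 of 19 alternatives, and CDKN1C had under 1 TPM in all 4 libraries at 3% oxygen.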

How the results depend on the processing

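The number of called genes stayed within 1.5 times the reported 2328 under all alternatives run, from 1824 to 2088 with 1 of the 4 libraries left out, where the lone library of a group is assumed to vary like the other groups. Genes called higher ranged there from 934 to 1165 and genes called lower from 890 to 956. The median change of all tested genes was -0.01 with the median-ratio scaling and 0.09 with quantile normalization, against 0.19. The count for the oxygen difference (840) was 129 in a fit of only the libraries compared, 448 with array weights and 1554 at an adjusted p under 0.05, and 378 to 1510 with a library left out. HRAS turned from 0.13 to -0.08 with the median-ratio scaling, to -0.003 with quantile normalization and lay between -0.0041 (without metastasizing replicate a) and 0.27 with a library left out. The largest part of the net change lay in the first, middle and last step for 31.7% to 33.2%, 49.2% to 50.3% and 16.8% to 18.9% of called genes with a library left out. Of the 94 named genes that were called, 87 passed in each alternative; LIF, DUSP4, KIF2C, PTGS2, ITGB8, TBX15 and PRRX1 did not. Counts of list members were within 1.5 times the reported ones in 831 of 866 comparisons. With the letter as a replicate block 2297 genes were called, 2280 of them shared with the reported calls, and 742 in the oxygen difference. The deviations of same-letter libraries of the 2 groups correlated at -0.126 across genes. Over all pairs of groups such values ran from -0.298 to 0.247. With 2 libraries per group a value of this kind cannot exclude pairing by letter. A crossed replicate block, added after seeing the data, gave 2299 calls. A fit without the metastasizing libraries at 3% oxygen, also added later, gave 2446. Depth is unknown, so no value of a few TPM can be given a counting error.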

Other observations

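Some genes ended near where they began but left that level in between. Of the 6918 tested genes whose ends lay within 1.5-fold of each other, 33 had a middle stage more than 4-fold above both ends and 35 one more than 4-fold below both. The genes given here were chosen after their values were seen. BACE2, a protease related to beta-secretase, had 20.0 and 21.6 TPM in primary, 0.185 and 0.105 TPM in immortalized, 28.0 and 25.4 TPM in transformed and 28.9 and 24.5 TPM in metastasizing libraries. TSPYL5 had 8.56 and 8.37 TPM in primary and 7.59 and 7.10 TPM in metastasizing libraries, against 0.0129 and 0 TPM in the immortalized ones. The immortalized plates stood far below all others for both genes, as they did for CDKN2A, CDKN2B, FBN2 and BEX1.

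In the other direction, MSR1, a scavenger receptor, had 90.6 and 98.2 TPM in immortalized libraries and at most 2.19 TPM in the other 6 atmospheric libraries. PTX3, a soluble pattern recognition protein, had 908 and 889 TPM there, against 57.0 and 86.9 TPM in primary and 53.7 and 55.1 TPM in metastasizing libraries. AKR1C1, an aldo-keto reductase with close relatives, had 28.6 and 19.2 TPM there and at most 1.88 TPM in the other 6 atmospheric libraries.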
